A study of Mus musculus with 6 samples.

Results

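The genes described here are 10 genes of the MHC class I antigen presentation pathway: the heavy chain genes H2-K1 and H2-D1, the light chain gene B2m, the peptide transporter genes Tap1 and Tap2, the tapasin gene Tapbp, the immunoproteasome genes Psmb8, Psmb9 and Psmb10, and the transactivator gene Nlrc5. They were taken as a list by symbol, are 10 of 54146 gene identifiers in the count tables, and were followed across every library. Transcripts were measured by strand-specific sequencing of total RNA in NIH/3T3 cells, a line of immortal fibroblasts that came from mouse embryos and is labelled as of a Swiss albino strain. The groups were wild-type (WT) cells and knockout clone 1 and clone 2, both Mki67-/- (without a working gene for the proliferation antigen Ki-67), with 2 libraries in each group. All groups were grown in the same serum-containing medium, with no interferon or other agent named in the labels. Each knockout group was a single clone, made in a way not given in the sources used here. Setting the clones against WT asks how far loss of Ki-67 goes with other transcript levels. No label ties the replicates to separate cultures, and the p-values then measure the spread between libraries alone, which may be technical.

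Class I molecules display short peptides from the inside of a cell to cytotoxic T cells. Proteasomes cut proteins into peptides, the TAP transporter carries these into the endoplasmic reticulum, and a group of chaperones that includes tapasin helps load them onto a heavy chain paired with beta-2 microglobulin. Fibroblasts make class I molecules at a modest level, and interferons raise the heavy chains, the transporter, the immunoproteasome subunits and the transactivator NLRC5 together.

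The 6 libraries held 3873249 to 19678782 gene counts, the fewest in WT replicate 1, and 3 counts correspond to 0.775 CPM in that library (gene counts scaled to a common library total, with TMM factors between libraries in the values below) and to 0.152 CPM in the deepest. Mki67 was at 49.1 and 55.1 CPM in WT and at 4.24 to 7.69 CPM in the 4 knockout libraries. One protocol text of the labels names 4T1, a mammary tumour line, so the markers were checked: all 7 fibroblast markers were present in every library, at a summed 5761 to 9183 CPM, and 4 epithelial markers summed to 0.541 to 1.16 CPM. The fibroblast markers were not level, with Col1a1 higher and 4 others lower in the knockout mean. The 7 leukocyte markers summed to 15.8 and 20.1 CPM in WT and 11.8 to 18.3 CPM in the knockout libraries, nearly all of it Cd68, and the defining markers Adgre1, Cd3e and Laptm5 were at 0 in all libraries. The 3 endothelial markers summed to 4.07 and 4.50 CPM in WT and to 1.26 to 1.73 CPM in the knockout libraries, chiefly Cdh5, and their part in the results was not tested. In bulk RNA, fewer cells of a type and less RNA per cell cannot be told apart.

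The 2 heavy chain genes share a stretch upstream of the RefSeq start. In it the letters of an NF-kB site lie beside those of an interferon element. It is shown because both genes carry it almost letter for letter in the reference. What part it has in their levels was not tested. The stretches below are 29 bases each, from RefSeq (GRCm38.p6), 5′ to 3′ on the strand of the gene, with the NF-kB core GGGATTCCC and the interferon element TTTCACTTC, which do not overlap, in capitals. The H2-K1 stretch is at chr17:34000429-34000457 on the minus strand and begins 124 bases before the RefSeq transcript start. Of the 2 RefSeq starts listed for H2-K1, the more downstream was used. The H2-D1 stretch is at chr17:35262924-35262952 on the plus strand and begins 170 bases before its RefSeq start. The GENCODE M21 gene model of H2-D1 starts further upstream, at 35262730, so by that annotation the H2-D1 stretch lies inside the gene.
H2-K1: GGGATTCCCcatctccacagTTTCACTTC
H2-D1: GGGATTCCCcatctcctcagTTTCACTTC

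The stretches differ by the substitution A17T, with positions counted from 1 at the 5′ end, the H2-K1 base first and the H2-D1 base last. These are reference letters, and the sequence in the cells studied, which carry a Swiss label, was not examined. Over the 250 bases before each RefSeq start, 203 bases aligned, and 87.2% of them were identical. A search of both strands of the 250 bases before 32851 transcript starts found GGGATTCCC in 99 (0.301%) and TTTCACTTC in 132 (0.402%). Of the 8 pathway genes in the RefSeq table, H2-K1 and H2-D1 held each of them. GAAANNGAA, the core of the interferon-stimulated response element, was found before B2m (7.13% of all starts). TTCNNNGAA, the letters of a gamma-activated site, was found before Psmb8 (7.02%). The common CCAAT box was found before 6 of the genes (33.8% of all starts). GGGCGG was found before Tap1, Tapbp and Psmb9 (32.7%). These matches describe letters in a window. They are not sites shown to be bound.

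H2-K1, a gene for 1 of the main peptide-presenting heavy chains, fell in both knockout clones, and further in clone 2 than in clone 1. H2-D1, the gene of another main heavy chain, was the most abundant heavy chain transcript, and no difference between WT and either clone passed the test. Among the other members Tapbp rose in both clones. Tap1 fell and Psmb10 rose in the mean of both clones, calls that depended on single libraries and on the method of analysis. B2m, Tap2, Psmb9 and Nlrc5 did not pass the test, and Psmb8 was at the limit of detection. In the mean of both clones against WT, 9 of the 10 genes passed the filter on low counts, and 2 of them were called higher and 2 lower by edgeR's quasi-likelihood test at an adjusted p below 0.05. Over the 13120 genes tested, 34.8% were called, 16.6% higher and 18.2% lower. The median log2 fold change of the 9 genes was −0.21, against 0.0049 over all genes tested. The share of these genes called is near that background, so the count alone does not set them apart.

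**Figure D1:**
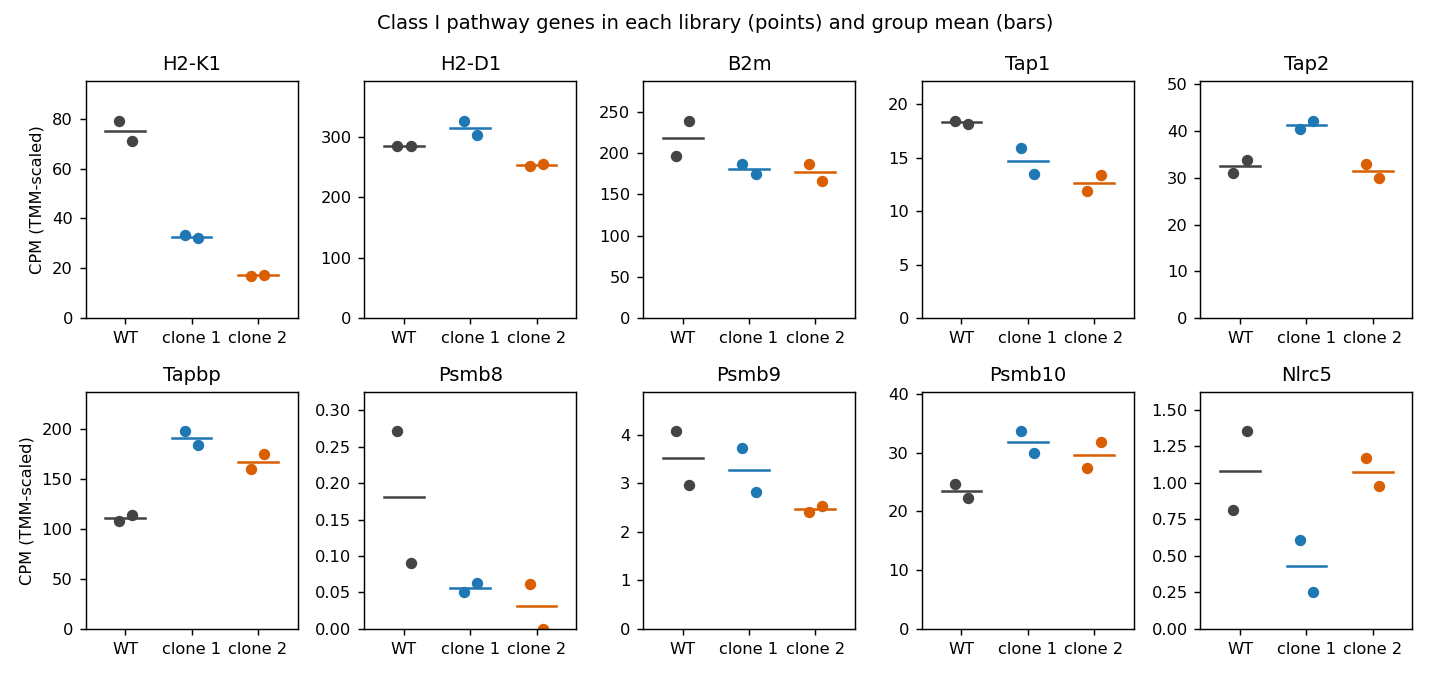
TMM-scaled CPM of each of the 10 class I pathway genes in the 2 libraries of WT, knockout clone 1 and knockout clone 2 (points), with the group mean as a bar and an axis that starts at 0 in each panel. H2-K1 is highest in WT (71.2 and 79.2 CPM) and lowest in clone 2 (17.02 and 17.46 CPM), Tapbp is lowest in WT, and the Psmb8 points rest on at most 1 count each.

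H2-K1 (ENSMUSG00000061232) is a protein-coding gene on chromosome 17, 33996017 to 34000347 in GRCm38, minus strand. It was at 79.2 and 71.2 CPM in WT, at 33.4 and 32.1 CPM in clone 1, and at 17.02 and 17.46 CPM in clone 2. The 3 groups did not overlap, and the libraries within a group lay close together. As means, this is 75.2 ± 5.70 CPM in WT, 32.7 ± 0.933 CPM in clone 1 and 17.2 ± 0.308 CPM in clone 2 (SD, n = 2 each). The log2 fold change was −1.19 ± 0.14 (SE) in clone 1 (edgeR adjusted p = 2.52e-05) and −2.12 ± 0.14 in clone 2 (edgeR adjusted p = 2.1e-07). The mean of both clones was 3.15-fold lower than WT (log2 fold change −1.66 ± 0.12, edgeR adjusted p = 2.0e-07). Between the clones the difference was also past the threshold, with clone 2 below clone 1 (log2 difference −0.93 ± 0.14, edgeR adjusted p = 0.00147), a contrast in which 3.54% of all genes were called (1.18% higher and 2.36% lower). H2-K1 was the only 1 of the 9 genes called there.

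H2-D1 (ENSMUSG00000073411, chromosome 17, 35262730 to 35267499, plus strand), the gene of the D heavy chain, was at 284 and 285 CPM in WT. It was at 327 and 303 CPM in clone 1 and at 252 and 256 CPM in clone 2. Clone 1 lay above and clone 2 below the WT libraries, without overlap, and neither difference passed the test. On the log2 scale the fold change was 0.15 ± 0.12 in clone 1 (edgeR adjusted p = 0.385) and −0.16 ± 0.12 in clone 2 (edgeR adjusted p = 0.346). Set against H2-D1 within each library, H2-K1 counts were 27.9% and 25.0% of H2-D1 counts in WT, 10.2% and 10.6% in clone 1, and 6.75% and 6.82% in clone 2. This ratio does not depend on the scaling between libraries, and it fell into 3 groups that did not overlap.

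B2m (ENSMUSG00000060802, chromosome 2, 122147686 to 122153083, plus strand) encodes beta-2 microglobulin, the light chain that every classical class I heavy chain needs at the cell surface. It was at 196 and 239 CPM in WT, at 187 and 174.7 CPM in clone 1, and at 187 and 166 CPM in clone 2. All 4 knockout libraries lay below both WT libraries, which themselves differed by more than the gap. The log2 fold change of the mean of both clones was −0.29 ± 0.12 and missed the threshold (edgeR adjusted p = 0.0671). Without WT replicate 1 it was −0.42 and passed (adjusted p = 0.00916), as it did then in clone 1 (−0.41, adjusted p = 0.0278) and in clone 2 (−0.44, adjusted p = 0.0183).

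**Figure D2:**
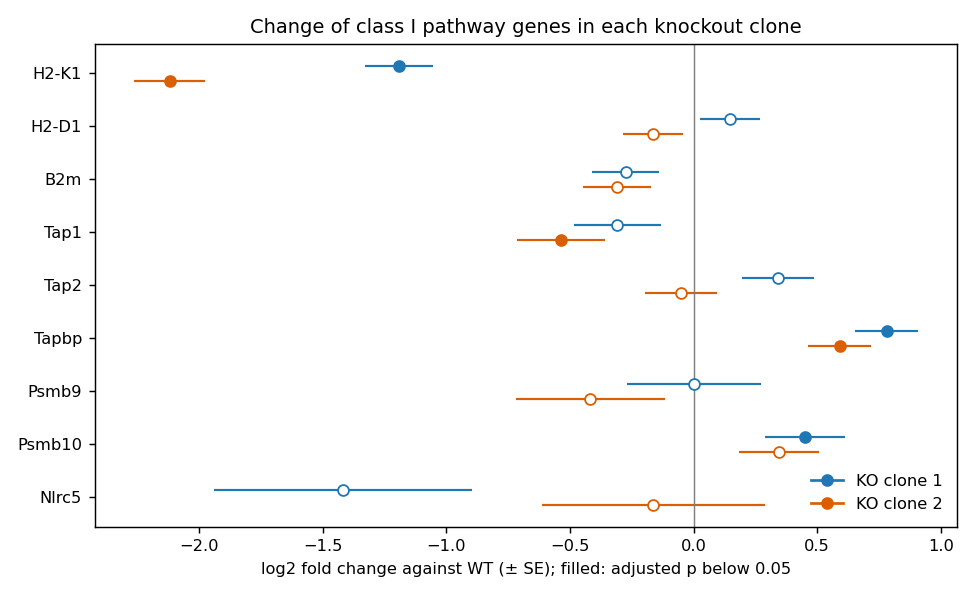
Log2 fold change against WT (horizontal axis, points with SE) of the 9 tested class I pathway genes in knockout clone 1 and clone 2. Filled points have an edgeR adjusted p below 0.05. H2-K1 stands at −1.19 in clone 1 and −2.12 in clone 2, Tapbp at 0.78 and 0.59, and both clones share the same WT libraries.

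The genes around H2-K1 on chromosome 17 were examined because 6 of the other members also lie in the MHC region there. Of 32 tested genes within 250 kb of H2-K1, 2 were called higher and 7 lower in the mean of both clones (28.1%, median log2 fold change −0.05). Beside H2-K1 and Tap1, those called lower were Angptl4 (−1.16), Kank3 (−0.77), Rps28 (−0.45), Cd320 (−0.44) and Zbtb22 (−0.33). Those called higher were Tapbp and Rgl2 (0.42). Of the 4 tested genes that follow H2-K1 on the chromosome, the Polycomb gene Ring1 was at −0.21, the zinc transporter gene Slc39a7 at 0.22, the nuclear receptor gene Rxrb at 0.12 and the collagen gene Col11a2 at 0.34, and none was called. Over the 63 tested genes from Tapbp to H2-D1, 3 were called higher and 6 lower (14.3%, median −0.02), against 34.8% over all genes. H2-K2, a class I relative next to H2-K1 that is annotated as a transcribed pseudogene, was chosen after its values were seen. It had few counts, at 1.36 and 1.17 CPM in WT. In clone 1 it was at 0.858 and 0.879 CPM, and in clone 2 at 0.308 and 0.521 CPM. It was called in clone 2 (log2 fold change −1.55 ± 0.49, edgeR adjusted p = 0.0315) and not in the mean of both clones (−1.02, edgeR adjusted p = 0.0689).

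**Figure D3:**
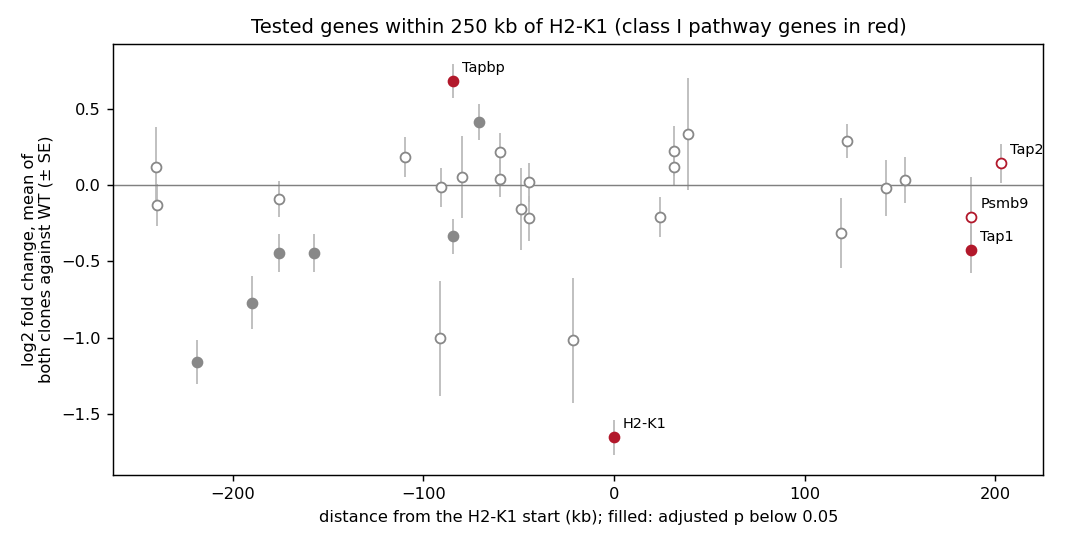
Log2 fold change (mean of both clones against WT, with SE) of the 32 tested genes within 250 kb of H2-K1, by distance from the H2-K1 start in kb, with larger chromosome positions to the right. Filled points have an edgeR adjusted p below 0.05 and red marks class I pathway genes. H2-K1 has the lowest value in the window (−1.66) and Tapbp the highest (0.69).

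Peptides reach the endoplasmic reticulum through TAP, a transporter made of the products of Tap1 and Tap2. Tap1 (ENSMUSG00000037321, chromosome 17, 34187553 to 34197225, plus strand) was at 18.5 and 18.1 CPM in WT, at 15.9 and 13.5 CPM in clone 1, and at 11.8 and 13.4 CPM in clone 2. Every knockout library lay below both WT libraries. The log2 fold change was −0.42 ± 0.15 in the mean of both clones (edgeR adjusted p = 0.0477) and −0.53 ± 0.18 in clone 2 (edgeR adjusted p = 0.0382), and −0.31 ± 0.18 in clone 1 was not called (edgeR adjusted p = 0.196). The call on the mean was lost in 11 of 16 alternative analyses, with adjusted p-values from 0.0344 to 0.146 over the 16. Among these, it was lost without WT replicate 1 (−0.41), WT replicate 2 (−0.43), clone 1 replicate 2 (−0.37), clone 2 replicate 1 (−0.39) and clone 2 replicate 2 (−0.47). In clone 2 it was lost without WT replicate 2 (−0.54, adjusted p = 0.0850), clone 2 replicate 1 (−0.46, 0.244) and clone 2 replicate 2 (−0.63, 0.0883).

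Tap2 (ENSMUSG00000024339, chromosome 17, 34203527 to 34216321, plus strand) took another course from its partner. It was at 30.9 and 33.9 CPM in WT, at 40.5 and 42.2 CPM in clone 1, and at 33.0 and 30.03 CPM in clone 2. Clone 1 lay above WT, and clone 2 overlapped it. As a log2 fold change this was 0.34 ± 0.14 in clone 1 (edgeR adjusted p = 0.0879) and −0.05 ± 0.15 in clone 2 (edgeR adjusted p = 0.832), and the clones did not differ past the threshold (−0.39, edgeR adjusted p = 0.159). Without a scaling factor the clone 1 difference was called (0.42, adjusted p = 0.0426). Tap1 counts were 59.6% and 53.5% of Tap2 counts in WT, 39.3% and 32.0% in clone 1, and 35.9% and 44.5% in clone 2, so all knockout ratios lay below both WT ratios.

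Tapbp (ENSMUSG00000024308, chromosome 17, 33915899 to 33929292, plus strand) encodes tapasin, which bridges TAP and the empty heavy chain during loading. It was at 107 and 114 CPM in WT, at 198 and 184 CPM in clone 1, and at 160 and 174.8 CPM in clone 2. All knockout libraries lay above both WT libraries. Its log2 fold change was 0.78 ± 0.13 in clone 1 (edgeR adjusted p = 0.000481), 0.59 ± 0.13 in clone 2 (edgeR adjusted p = 0.00402) and 0.69 ± 0.11 in their mean (edgeR adjusted p = 0.000465). The call in clone 2 was lost without clone 2 replicate 2 (0.51, adjusted p = 0.0662). That in the mean was kept in all 16 alternatives.

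Immunoproteasomes carry 3 inducible catalytic subunits in place of constitutive ones. Psmb8 replaces Psmb5, Psmb9 replaces Psmb6 and Psmb10 replaces Psmb7. Psmb10 (ENSMUSG00000031897, chromosome 8, 105935735 to 105938444, minus strand) was the inducible subunit transcript with the highest level. It was at 24.7 and 22.3 CPM in WT, at 33.7 and 29.9 CPM in clone 1, and at 27.4 and 31.8 CPM in clone 2. Every knockout library lay above both WT libraries. The log2 fold change was 0.40 ± 0.14 in the mean of both clones (edgeR adjusted p = 0.0448), 0.45 ± 0.16 in clone 1 (edgeR adjusted p = 0.0454), and 0.34 ± 0.16 in clone 2, which was not called (edgeR adjusted p = 0.129). The call on the mean was lost in 7 of 16 alternatives (adjusted p = 0.0210 to 0.232). It was lost without WT replicate 2 (0.32), clone 1 replicate 1 (0.35), clone 2 replicate 1 (0.44) and clone 2 replicate 2 (0.33). In clone 1 it was lost without WT replicate 2 (0.37, adjusted p = 0.183), clone 1 replicate 1 (0.37, 0.166), clone 1 replicate 2 (0.53, 0.0681), clone 2 replicate 1 (0.45, 0.0777) and clone 2 replicate 2 (0.44, 0.0790).

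Psmb9 (ENSMUSG00000096727, chromosome 17, 34181987 to 34187764, minus strand) was at 4.07 and 2.97 CPM in WT, at 3.73 and 2.83 CPM in clone 1, and at 2.40 and 2.54 CPM in clone 2. Clone 1 overlapped WT, while clone 2 lay below it. Against WT, the log2 fold change was 0.00 ± 0.27 in clone 1 (edgeR adjusted p = 0.998) and −0.42 ± 0.30 in clone 2 (edgeR adjusted p = 0.329). Psmb9 and Tap1 are divergent neighbours whose RefSeq starts lie 226 bases apart. Psmb8 (ENSMUSG00000024338, chromosome 17, 34197721 to 34201454, plus strand) had 1 count in 5 of the libraries and 0 in clone 2 replicate 2, and was not tested. At 3 counts or fewer in each group no fold is given, and a difference in Psmb8 was not detectable at this depth.

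The constitutive counterparts were more abundant per kb of exon in every library. Psmb6 was at 296 to 426 CPM, Psmb7 at 220 to 285 CPM and Psmb5 at 18.9 to 26.9 CPM over the 6 libraries. Their log2 fold changes in the mean of both clones were 0.05 ± 0.14, 0.19 ± 0.12 and 0.01 ± 0.16, and none was called (edgeR adjusted p = 0.833, 0.244 and 0.973). Psmb5 is uncertain, since 54.1% of the 50-base words of its transcripts also occur in transcripts of other genes, mostly pseudogene copies. Per kb of exon, Psmb10 was at 18.5% and 20.4% of Psmb7 in WT, 23.7% and 23.6% in clone 1, and 19.5% and 22.5% in clone 2. Psmb9 was at 0.488% and 0.513% of Psmb6 in WT, 0.501% and 0.423% in clone 1, and 0.331% and 0.332% in clone 2. The first ratio overlapped between clone 2 and WT, and the other lay lowest in clone 2.

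Nlrc5 (ENSMUSG00000074151, chromosome 8, 94434356 to 94527272, plus strand), the transactivator of class I genes, was close to the limit of counting. It had 3 and 15 counts in WT, 12 and 4 in clone 1, and 19 and 15 in clone 2, or 0.814 and 1.35 CPM, 0.605 and 0.251 CPM, and 1.17 and 0.977 CPM. Clone 1 held the lowest values and clone 2 lay within the WT range. The difference between clone 2 and clone 1 was not called (log2 difference 1.26 ± 0.45, edgeR adjusted p = 0.165). Against WT, Nlrc5 had a log2 fold change of −1.42 ± 0.52 in clone 1 (edgeR adjusted p = 0.0512), −0.16 ± 0.45 in clone 2 (edgeR adjusted p = 0.826) and −0.79 ± 0.44 in their mean (edgeR adjusted p = 0.182). In clone 1 the difference was called in 5 of 13 alternatives that gave a value, among them those without WT replicate 1 (−1.58, adjusted p = 0.0280) and without clone 1 replicate 1 (−2.21, adjusted p = 0.0364). It shrank to −0.85 without WT replicate 2 (adjusted p = 0.563).

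By single clone, 2 members were called higher (Tapbp and Psmb10) and 1 lower (H2-K1) in clone 1, where 15.2% of all genes were called higher and 16.5% lower (31.7% in all). In clone 2, 1 was called higher (Tapbp) and 2 lower (H2-K1 and Tap1), with 12.9% and 14.5% over all genes (27.4% in all). These 2 contrasts share the WT libraries. Divided by exon length, the levels in WT ran from B2m (253 CPM per kb) through H2-D1 (110), Tapbp (30.5), H2-K1 (25.6), Psmb10 (13.8), Tap2 (8.57), Tap1 (3.34), Psmb9 (0.962) and Nlrc5 (0.127) to Psmb8 (0.0535). The order of the genes moved at H2-K1. In clone 1 Psmb10 (18.7 CPM per kb) stood above H2-K1 (11.1), whose library range overlapped that of Tap2 (10.9), and in clone 2 H2-K1 (5.87) stood below Psmb10 (17.4) and Tap2 (8.33).

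Class I genes have close relatives, and the deposited counts leave out reads that align to several places. Of the 50-base words in H2-K1 transcripts, 9.63% also occurred in transcripts of other genes, chiefly H2-Q10, H2-D1 and H2-Q7, and for H2-D1 the share was 12.8%. For B2m and Psmb10 it was 0 and for Nlrc5 0.338%. For Tap1 it was 3.33%, for Psmb9 4.19%, for Tap2 11.6%, for Psmb8 11.9% and for Tapbp 23.2%. From Nlrc5 to Tapbp, the gene that shared most words overlaps the member at the same locus. For Tapbp this was Gm19412 (20.3%) and for Psmb8 Gm20496 (11.6%). Words shared through such an overlap lie at a single place, so they do not measure reads that align to several places. The counts of H2-K1 and H2-D1 thus rest on their unique parts and are uncertain. How large the error is was not tested, since only exact words of reference transcripts were compared. The reads were aligned to GRCm38, an assembly of the C57BL/6J strain, whereas the cells carry a Swiss label, and class I genes are among the most variable between strains. What part allele differences have in the levels was not tested.

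The count that ignores strand was compared with the strand-specific count for every member. It came to 100.1% of the strand-specific count for H2-K1, 100.9% for H2-D1, 100.1% for B2m, 98.3% for Tap1, 98.8% for Psmb9 and 101.0% for Psmb10. It was lower for Tapbp (94.2%), whose exons overlap the antisense gene Gm19412 over 24.9% of their length, and for Tap2 (67.8%), which overlaps the antisense gene Gm15821 over 14.1%. For Nlrc5 the sums of both counts were equal, and for Psmb8 they were 9 and 5 over all libraries. With these counts the same 4 genes were called in the mean of both clones. H2-K1 was at −1.65, Tapbp at 0.68, Tap1 at −0.42 (adjusted p = 0.0456) and Psmb10 at 0.39 (adjusted p = 0.0487) on the log2 scale. The clone difference of H2-K1 was −0.93 (adjusted p = 0.00166).

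Among 20 other class I heavy chain and class I-like genes, 12 were tested and 2 were called in the mean of both clones, both lower. The median log2 fold change of the 12 was −0.16. Over all genes tested, 18.2% were called lower and 16.6% higher, so the number called lower is near the background. The 2 called genes are relatives that do not present peptides to T cells. Hfe, whose product regulates iron uptake, had 14 and 57 counts in WT, 29 and 11 in clone 1, and 0 and 5 in clone 2. It fell in both clones, with a log2 fold change of −2.08 ± 0.41 in clone 1 and −4.82 ± 0.60 in clone 2 (edgeR adjusted p = 0.00198 and 7.09e-05) and few counts behind these values. With 1 library left out the value ran from −2.75 to −1.69 in clone 1 and from −8.98 to −3.82 in clone 2. The lowest of these is the fit without clone 2 replicate 2, which leaves a library at 0 counts and gives no measure of size. Fcgrt, the heavy chain of the neonatal Fc receptor, which protects IgG and albumin from breakdown, was at 53.5 and 64.0 CPM in WT, at 31.9 and 30.2 CPM in clone 1, and at 27.7 and 29.3 CPM in clone 2. The knockout libraries did not overlap WT, and the log2 fold change of −0.99 ± 0.12 was called (edgeR adjusted p = 3.93e-05).

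**Figure D4:**
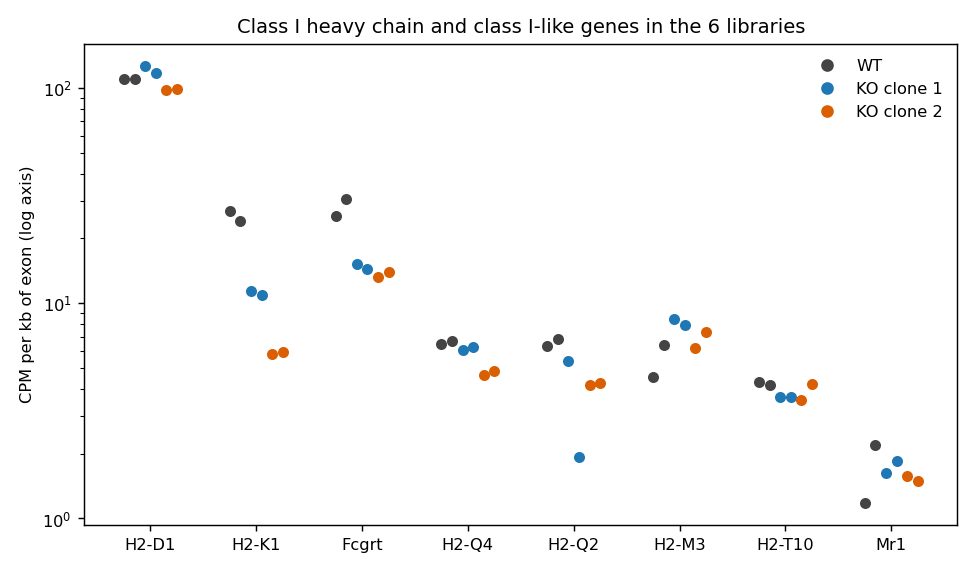
CPM per kb of exon (log axis) of H2-D1, H2-K1 and 6 class I or class I-like heavy chain genes in each of the 6 libraries (points, coloured by group). H2-K1 and Fcgrt lie lower in all knockout libraries than in WT, while H2-D1 lies between 97.7 and 127 CPM per kb in all 6, and H2-Q2 has 1 clone 1 library apart from the rest.

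The other heavy chain genes did not pass the test in the mean of both clones. H2-Q4, a class Ib gene, was at 16.8 and 17.3 CPM in WT and 15.7 and 16.2 CPM in clone 1. In clone 2 it was at 12.0 and 12.6 CPM. Its log2 fold change was −0.10 ± 0.17 in clone 1 (edgeR adjusted p = 0.674) and −0.48 ± 0.17 in clone 2 (edgeR adjusted p = 0.0504). In the mean it was −0.29 ± 0.15 (edgeR adjusted p = 0.145). H2-Q2 was at 13.8 and 15.0 CPM in WT, at 9.13 and 9.25 CPM in clone 2, and at 11.8 and 4.21 CPM in clone 1, the latter pair far apart. Its log2 fold change of −0.75 ± 0.29 missed the threshold (edgeR adjusted p = 0.0581) and was called in 8 of 16 alternatives. Those included the fits without WT replicate 1 (−0.79), WT replicate 2 (−0.67), clone 1 replicate 1 (−1.23, adjusted p = 0.00017) and clone 1 replicate 2 (−0.49, adjusted p = 0.0454). H2-M3, which presents formylated peptides, was at 0.38 ± 0.19 and the antigen-presenting gene Mr1 at −0.16 ± 0.21. H2-T10, at 12.1 to 14.7 CPM, had a log2 fold change of −0.16. H2-T22 (−0.02), H2-T23 (0.13), H2-T3 (0.36) and H2-Bl (−0.45) were at lower levels. Of the 50-base words of H2-T10 and H2-T22, 50.4% and 53.5% are shared with other genes, which makes their counts uncertain. The shares were 36.4% for H2-Q4 and 16.1% for H2-Q2, whose counts are uncertain as well. Cd1d1, which presents lipids, was at 0.12 ± 0.46 in the mean, and the clones differed, with clone 2 (1.42 and 1.30 CPM) above clone 1 (0.404 and 0.565 CPM) by 1.50 ± 0.38 on the log2 scale (edgeR adjusted p = 0.0439), a call lost without any 1 of the 4 knockout libraries (1.24, 1.73, 1.43 and 1.55).

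Of 7 loading chaperones and peptide editors, 4 passed the test in the mean of both clones, all of them higher, with a median log2 fold change of 0.46 over the 7 (16.6% of all genes were called higher, and the median of all was 0.0049). The lectin chaperone Canx, which folds new heavy chains, was at 328 and 510.3 CPM in WT and 571 to 763 CPM in the knockout libraries, and rose by 0.68 ± 0.18 (edgeR adjusted p = 0.0085). Its value moved with the WT libraries, to 0.40 without WT replicate 1 and 1.05 without WT replicate 2, and stayed called. The chaperone Hspa5 rose by 0.65 ± 0.16 (edgeR adjusted p = 0.00762), and was at 0.41 without WT replicate 1 and 0.95 without WT replicate 2, both called. Tapbpl, a tapasin relative that edits peptides, rose by 0.56 ± 0.19 (edgeR adjusted p = 0.0327), a call lost without any 1 of 5 of the libraries (all but clone 1 replicate 2), at 0.53 to 0.57. The disulfide isomerase Pdia3, a partner of tapasin, rose by 0.46 ± 0.13 (edgeR adjusted p = 0.0121). Its call did not hold without WT replicate 1 (0.33), without clone 1 replicate 2 (0.40) and without clone 2 replicate 1 (0.40). Calr, the soluble lectin chaperone of the same complex, was at 1124 and 1011.5 CPM in WT and 1204 to 1402 CPM in the knockout libraries, and its log2 fold change of 0.27 ± 0.12 was not called (edgeR adjusted p = 0.0981). It was called without a scaling factor (0.35) and without a low-count filter (0.32).

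Peptidases trim peptides before and after transport. Of 8 listed, Nrdc was not analysed here, 7 were tested, and 3 rose and 1 fell in the mean of both clones (median 0.19), where 16.6% of all genes were called higher and 18.2% lower. Npepps, a cytosolic aminopeptidase, rose by 1.00 ± 0.14, Lnpep, an endosomal aminopeptidase, by 0.85 ± 0.16, and Tpp2, a giant cytosolic peptidase, by 0.81 ± 0.19 on the log2 scale. Thop1, a peptidase that destroys short peptides, fell by 0.52 on that scale. Erap1, the aminopeptidase of the endoplasmic reticulum, was at 0.19 ± 0.18 and was not called (edgeR adjusted p = 0.443).

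Of 14 constitutive core subunits of the proteasome, 2 passed the test and were higher, Psma4 (0.65 ± 0.12) and Psma3 (0.55 ± 0.14), and the median of the 14 was 0.099 (16.6% of all genes were called higher). Psma3 was not called once WT replicate 2 was left out (0.43, adjusted p = 0.0733). Of 9 activator and assembly genes, 1 rose and 1 fell. Psme4, which encodes the activator PA200, rose by 1.10 ± 0.17 (edgeR adjusted p = 0.000279), and the assembly chaperone gene Psmg4 was lower (−0.67 ± 0.15, edgeR adjusted p = 0.00321). The interferon-inducible activator genes Psme1 (−0.12 ± 0.13) and Psme2 (0.38 ± 0.16) did not pass the test.

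**Figure D5:**
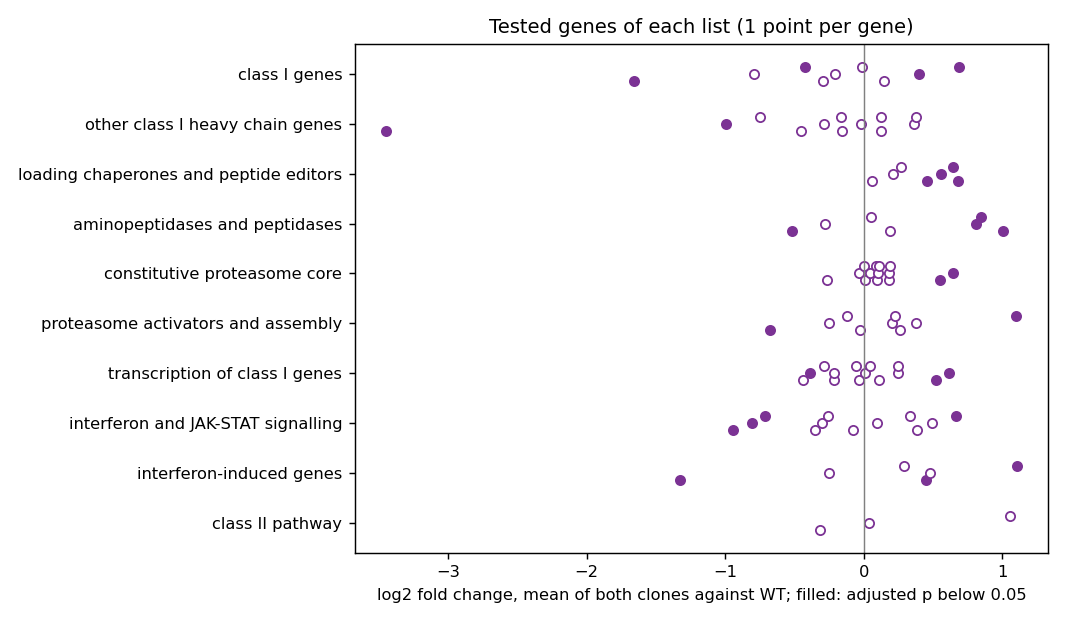
Log2 fold change (mean of both clones against WT) of each tested gene of the class I pathway and of 9 related lists, 1 point per gene, filled where the edgeR adjusted p is below 0.05. All 7 genes on the list of loading chaperones and peptide editors lie above 0 and 4 are called, whereas the class I genes lie on both sides of 0.

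Transcription of class I genes draws on IRF, RFX, NF-Y, CREB/ATF and NF-kB factors. Of 15 such genes, 14 were tested, 2 rose and 1 fell in the mean of both clones, with a median of −0.014 (34.8% of all genes were called). Irf1, the interferon regulatory factor that binds class I promoters, was at 45.9 and 51.2 CPM in WT and 51.2 to 53.5 CPM in the knockout libraries. Its log2 fold change was 0.11 ± 0.12 (edgeR adjusted p = 0.507). Rfx5, the DNA-binding subunit through which NLRC5 acts, was at −0.04 ± 0.19 (edgeR adjusted p = 0.904). Creb1 rose by 0.62 ± 0.16. Atf1 (0.52 ± 0.19) and Usf2 (−0.39 ± 0.13) passed the test and lost the call in 8 of 16 alternatives each. For Atf1 these included the fits without WT replicate 1 (0.44), clone 1 replicate 2 (0.44) and clone 2 replicate 1 (0.41). For Usf2 they included those without WT replicate 1 (−0.22), clone 1 replicate 2 (−0.37), clone 2 replicate 1 (−0.42) and clone 2 replicate 2 (−0.38).

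Interferon receptors signal through JAK kinases and STAT factors. Of 12 genes of this pathway, 1 rose and 3 fell, with a median of −0.17. Over all genes 34.8% were called, so this count is near the background. Stat2 and Irf9, which act together in the type I interferon response, fell, Stat2 from 19.0 and 25.0 CPM in WT to 11.1 to 12.3 CPM (−0.94 ± 0.15, edgeR adjusted p = 0.000413) and Irf9 to 3.02 to 4.58 CPM (−0.80 ± 0.22, edgeR adjusted p = 0.0128). Irf9 was not called once WT replicate 2 was left out (−0.68, adjusted p = 0.153), with DESeq2 (−0.80, adjusted p = 0.0528) or at equal depth (−0.58, adjusted p = 0.174). The feedback inhibitor Socs3 fell (−0.71 ± 0.13), and Ptpn2, a phosphatase that acts on JAK and STAT proteins, rose (0.67 ± 0.19), though not at equal depth (0.56, adjusted p = 0.0779).

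Of 11 interferon-induced genes, 6 passed the filter on low counts, 2 rose and 1 fell, where 34.8% of all genes were called. Ifit2, an RNA-binding antiviral gene, rose by 1.11 ± 0.22, and by 0.72 without WT replicate 2. Irgm1, a GTPase of cell-autonomous immunity, rose by 0.45 ± 0.15, a call lost without WT replicate 1 (0.39), without clone 1 replicate 2 (0.40) and without clone 2 replicate 1 (0.38). The rise of Irgm1 was larger in clone 1 (29.6 and 33.4 CPM) than in clone 2 (24.5 and 20.6 CPM), with WT at 18.5 and 20.3 CPM. Bst2, which encodes the virus-tethering protein tetherin, was lower, at 5.43 and 5.23 CPM in WT and 1.82 to 2.41 CPM in the knockout libraries (−1.33 ± 0.24, edgeR adjusted p = 0.000828). Of 8 class II pathway genes, 3 were tested, H2-DMa (−0.31), H2-DMb1 (0.04) and Cd74, and none was called by edgeR, with unadjusted p-values of 0.198 to 0.814 over all 6 libraries. Cd74 had 3 and 0 counts in WT, 13 and 11 in clone 1, and 4 and 5 in clone 2, too few for a fold. The class II transactivator gene Ciita had 0 to 2 counts in each library.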

How the data were processed

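Stranded total RNA libraries were made after removal of ribosomal RNA, per the labels' protocols. Per the submitters' processing notes, reads were viewed with FastQC and aligned with STAR 2.6.0c to GRCm38. Counting used an annotation release not given in the sources used here. Each deposited file holds raw, unscaled counts by Ensembl gene for unstranded, forward-strand and reverse-strand reads, and the reverse-strand counts were used. Reads in rows that name no gene (46.6% to 50.5%, with multimapping reads at 28.3% to 30.3%) were left out. A GENCODE M21 annotation of GRCm38 matched 54079 of 54146 identifiers.

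Tests used edgeR 4.0.16 (R 4.3.3): filterByExpr with a minimum count of 10, TMM, and a quasi-likelihood fit of all 6 libraries with 1 coefficient per group and 3 residual degrees of freedom. Adjusted p-values are Benjamini-Hochberg values over 13120 genes. Levels per kb use the union exon length. Replicates differed by more than sampling noise (chi-square per degree of freedom 13.6 in WT, 19.4 in clone 1 and 22.2 in clone 2). Steps were tested on simulated data. Alternatives were unstranded counts, other scalings and filters, DESeq2 1.42.0, limma-voom (limma 3.58.1), a replicate block, equal depth, a fit of 2 groups and leaving out each library. Floors cover counting error only.

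The members and lists were chosen with earlier results of these data known. By rule, named genes were all members, their constitutive and loading partners, Irf1, Rfx5, heavy chain genes with at least 1 CPM in any library, and up to 3 called genes in each direction of each further list. H2-K2, Erap1, Psme1, Psme2, Ciita, H2-DMa, H2-DMb1, Cd74 and the 4 neighbours of H2-K1 were added after their values were seen. So were the other genes named as called within 250 kb of H2-K1. Of the genes the rule names, 1 is not reported here.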

Additional observations from a re-analysis of the deposited data

Results flagged for a closer look

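The difference between the clones was tested directly, and 3 class I heavy chain or class I-like genes passed. H2-K1 differed by −0.93 on the log2 scale between clone 2 and clone 1, lower in clone 2, and both its libraries lay below both of clone 1 (edgeR adjusted p = 0.00147). It was called in all 15 alternatives (−1.06 to −0.91). Hfe differed by −2.74, lower in clone 2 (edgeR adjusted p = 0.0492), on 5 counts in clone 2 and 40 in clone 1. That call was lost in 7 of 15 alternatives (adjusted p up to 0.418), among them those without clone 1 replicate 1 (−2.07) and without clone 2 replicate 1 (−1.74). Without clone 2 replicate 2, which leaves clone 2 with a library at 0 counts, it was −6.9 and called, a fitted value that gives no measure of size. Cd1d1 differed by 1.50, higher in clone 2 (edgeR adjusted p = 0.0439), on 43 counts in clone 2 and 17 in clone 1. It was lost in 7 of 13 alternatives that gave a value (adjusted p up to 0.471), among them each of the 4 fits that left out a knockout library (1.24 to 1.73). Of all genes tested, 3.54% were called between the clones.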

How the results depend on the processing

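H2-K1 kept its direction and its call in every alternative and all 4 contrasts, with a log2 fold change of −1.73 to −1.58 in the mean of both clones, and Tapbp kept both in that mean (0.64 to 0.76). In the mean, 2 members were called with DESeq2, limma-voom or a fit of 2 groups, and 2 to 4 in the fits that left out 1 library. In clone 1 those fits called 2 to 5 members and 2205 to 4348 genes (4154 with all libraries, 2205 without clone 1 replicate 2). In clone 2 they called 1 to 4 members and 1668 to 4010 genes (3592 with all, 1668 without clone 2 replicate 1 and 2083 without clone 2 replicate 2). Between clones 465 genes were called, 813 without a low-count filter, 247 at equal depth, and 156 to 1207 with 1 library left out (most without a WT library). The cause was not tested.

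The values that turned sign were none of them called with all libraries under the edgeR test. Without a scaling factor the mean of both clones was 0.071 for H2-D1, 0.040 for Rfx5 and 0.054 for H2-T22, and clone 2 was 0.029 for Tap2. Without a low-count filter the mean was 0.041 for H2-D1, 0.011 for Rfx5 and 0.028 for H2-T22. At equal depth it was −0.11 for Psmb5 and 0.11 for Rfx5, and clone 2 was 0.12 for Tap2. Psmb5 was −0.012 with DESeq2 and −0.0026 with a fit of 2 groups, Rfx5 was 0.088 with unstranded counts, and H2-T22 was 0.017 with limma-voom. Psmb9 in clone 1 was −0.00099 with RLE size factors, −0.0055 with a stricter filter, −0.050 with DESeq2, −0.015 with limma-voom and −0.055 with the replicate block. With 1 library left out, the mean ranged from −0.041 to 0.0098 for H2-D1, −0.27 to 0.23 for Psmb5, −0.19 to 0.32 for Psmb6, −0.26 to 0.42 for Rfx5, −0.60 to 0.34 for H2-T22, −0.18 to 1.18 for H2-T23, −0.89 to 0.12 for H2-Bl, −0.42 to 0.47 for Mr1 and −0.0093 to 0.57 for Cd1d1. It ranged from −0.29 to 0.17 for Psmb9 in clone 1, −0.13 to 0.035 for Tap2 and −0.33 to 0.41 for Nlrc5 in clone 2, and −0.13 to 0.039 for B2m between clones.

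Whether the replicate numbers pair the samples was not settled. Same-numbered libraries had deviations that correlated at 0.267 (WT with clone 1), −0.094 (WT with clone 2) and −0.11 (clone 1 with clone 2). With a replicate block, 4 members and 4874 genes were called in the mean of both clones, against 4 members and 4561 genes without it. Between clones, 635 genes were called with the block and 465 without. At 0 to 19 counts per library, Psmb8 and Nlrc5 are limited by depth.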
